A study of Mus musculus with 6 samples.

Results

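A group of 8 genes expressed in mouse oocytes was followed in WT and Lsm14b-KO oocytes. The group holds the oogenesins Oog1, Oog2, Oog3 and Oog4 and the small oocyte genes Oosp1, Omt2a, Omt2b and Rfpl4. The genes were taken by symbol from the deposited table, where all 8 were found among 24255 listed genes. All 8 reached at least 1 FPKM (fragment numbers corrected for gene length and library size) in at least 1 library and were tested together with the other genes that did, 6398 in all. The oocytes were GV-stage fully-grown oocytes (FGOs), immature oocytes held in prophase of the first meiosis, from females primed with 5 IU of the gonadotropin PMSG 46 h earlier. The WT group and the Lsm14b-KO group each had 3 libraries of 20 oocytes, amplified by Smart-seq2. The knockout mice were homozygous for Lsm14b tm1a(KOMP)Mbp, a knockout-first allele with an inserted reporter that is present in every cell of the mouse, and both genotypes were kept on C57BL/6J. The labels give no age, and they do not say whether the replicates came from different females, so the p-values measure only the spread between these libraries. LSM14B is an RNA-binding protein, and the study asked which transcripts differ between oocytes with and without it.

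A fully-grown oocyte has largely stopped transcription and lives on mRNAs stored during its growth, and many of the most abundant of these are restricted to oocytes. The oogenesins are leucine-rich repeat proteins of the PRAME family, whose genes lie in clusters of recent copies in the mouse genome. OOSP1 is a secreted protein related to PLAC1, OMT2A and OMT2B are small proteins known as oocyte maturation alpha and beta, and RFPL4 is a RING finger protein that binds proteins of the ubiquitin and proteasome pathway and cyclin B1.

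The targeted gene Lsm14b (chr2:180024987-180035465, GRCm38, plus strand) was measured at 2.77, 3.98 and 1.72 FPKM in WT and listed at 0, 0 and 0.102 FPKM in Lsm14b-KO libraries, where here and below each set of 3 values gives replicates 1, 2 and 3 in that order. The fitted log2 fold change on log2(FPKM + 1) was -1.85 (SE 0.25, adjusted p = 0.0038 in limma). Lsm14b-KO replicate 1 lay nearest to the WT libraries, with a mean root-mean-square difference of 0.82 on log2(FPKM + 1) over the tested genes, against 1.31 for replicate 2, 1.05 for replicate 3 and 0.47 to 0.51 among the WT libraries. The sum of FPKM over all genes was 1141324 to 1244182 in WT and 564671 to 1029728 in Lsm14b-KO libraries, so the choice of scaling matters to every level below. Read numbers were not used here. Relative depth, from the commonest ratio of very low values, was 1.0 to 1.14 in WT and 1.33 to 2.17 in Lsm14b-KO libraries, and its part in the results was not tested. This estimate is not firm. The next commonest ratio was 0.57 and 0.514 in WT replicates 2 and 3, and 0.664, 0.974 and 1.09 in Lsm14b-KO replicates 1, 2 and 3. Of 10 oocyte markers, all above 0 in every library, 3 (Nobox, Ddx4 and Kit) were called higher and 1 (Dazl) lower in Lsm14b-KO FGOs by the test used below, which called 6.38% of all tested genes higher and 15.2% lower. Of 12 cumulus and granulosa markers, Amh, Foxl2 and Inhba were listed at 0 in all libraries, and the 12 summed to 9.83 to 13.6 FPKM in WT and 6.29 to 10.3 FPKM in Lsm14b-KO libraries. Most of this sum was Cyp19a1, which was lower in Lsm14b-KO FGOs, as Omt2a and Omt2b were, with 10.1 ± 1.65 FPKM in WT and 4.75 ± 1.51 FPKM in Lsm14b-KO (SD, n = 3; log2 fold change -0.98, adjusted p = 0.0426 in limma). Fshr had 0.852 ± 0.724 and 1.94 ± 0.129 FPKM (adjusted p = 0.0923), and the part of these cells in the results was not tested. All 7 red blood cell markers were listed at 0.

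The genes fell into 3 patterns. Omt2a and Omt2b were lower in Lsm14b-KO FGOs, Rfpl4 and Oosp1 had lower values that did not pass the test, and Oog2, Oog3 and Oog4 kept similar FPKM in both groups. Oog1 was listed at 0 in 3 libraries and could not be measured apart from its copies. At an adjusted p under 0.05 in limma, 2 of the 8 genes were lower and 0 were higher, while 3 had an unadjusted p under 0.05. Among all tested genes 21.6% passed, with 15.2% of all tested genes lower and 6.38% higher, so that 2 of 8 is close to the background. In 4 of the 8 genes every Lsm14b-KO library lay below every WT library, against 26.0% of all tested genes. The median log2 fold change was -0.86 over the 8 genes and -0.08 over all tested genes. This gap was smaller under other scalings, with medians of -0.17 against 0.40 under TPM scaling, -0.11 against 0.07 after quantile normalization and -0.26 against 0.10 after correction for length and GC content. Calls over all genes were 408 higher and 975 lower, and turned to 833 higher and 486 lower when each library was scaled to the same sum (TPM).

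**Figure D1:**
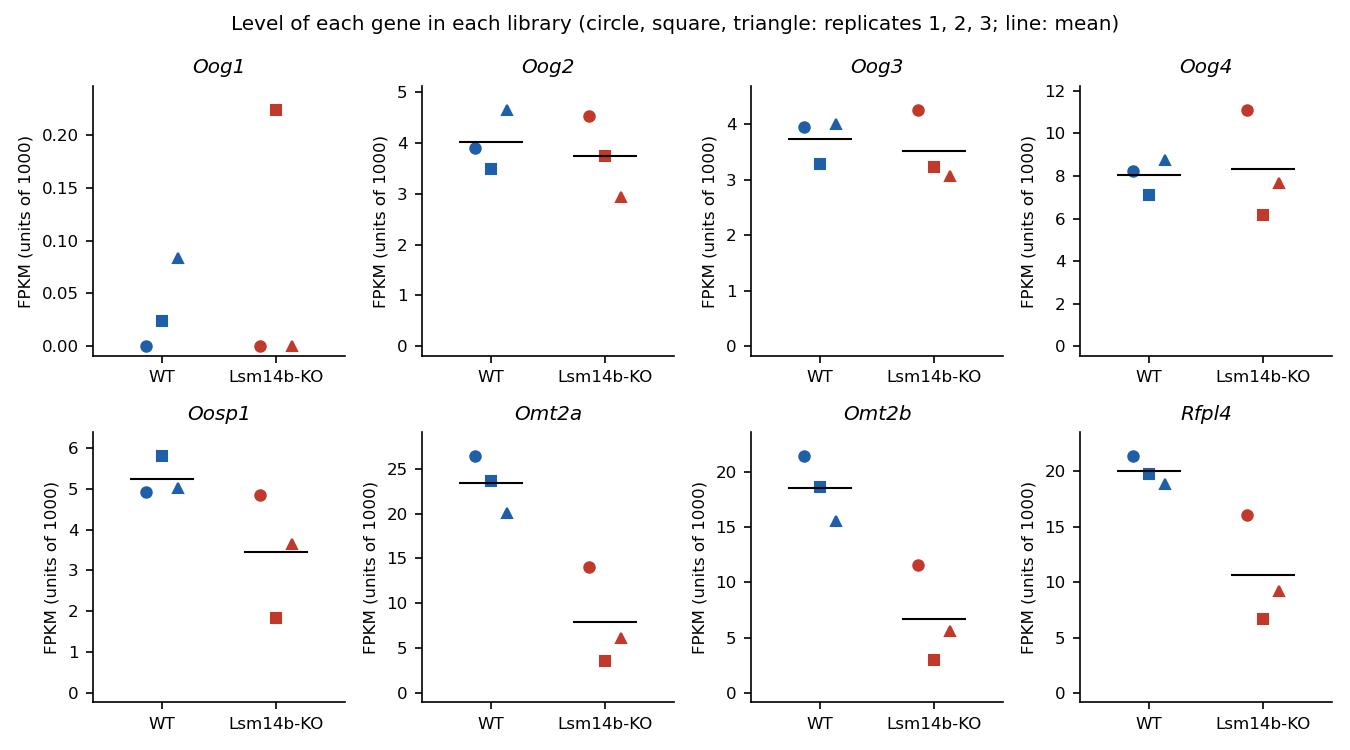
FPKM of each gene in each library (axis in units of 1000 FPKM) for 3 WT (blue) and 3 Lsm14b-KO (red) libraries, with lines at the group means (none for Oog1, which is listed at 0 in 3 libraries). The groups are apart for Omt2a, Omt2b, Rfpl4 and Oosp1, where Lsm14b-KO replicate 2 is lowest, and overlap for Oog2, Oog3 and Oog4.

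In WT FGOs, 7 of the 8 genes, all but Oog1, were among the 100 most abundant transcripts of every library. FPKM is per length, so these levels can be set side by side within limits. They depend on the annotated length used. Those of Oog2 and Oog3 can also depend on how fragments shared with near-identical copies were counted. The WT mean was 23400.0 FPKM for Omt2a, 19998 for Rfpl4, 18544 for Omt2b, 8034 for Oog4, 5253 for Oosp1, 4008 for Oog2 and 3742 for Oog3. The values of Omt2a and Rfpl4 overlapped between them, as did those of Rfpl4 and Omt2b, and those of Oog2 and Oog3. Oog4, Oosp1 and the pair Oog2 and Oog3 stood apart from each other in the WT libraries. In Lsm14b-KO FGOs the first place passed to Rfpl4, with a mean of 10626 FPKM, and the range over libraries of each gene overlapped that of its neighbours in the order. The 8 genes together made up 6.76% to 7.25% of the FPKM sum in WT and 5.04% to 6.44% in Lsm14b-KO libraries.

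Omt2a (chr9:78311972-78314796, minus strand, protein coding) reached 26413, 23658 and 20129 FPKM in WT FGOs. In Lsm14b-KO FGOs its level was 14008, 3601 and 6109 FPKM. Every Lsm14b-KO value was below every WT value, and replicate 1 kept the highest and replicate 2 the lowest level. The means were 23400.0 ± 3150.2 FPKM in WT and 7906 ± 5431 FPKM in Lsm14b-KO (SD, n = 3), so that 33.8% of the WT mean was left. In libraries of pooled oocytes, fewer copies in each oocyte and fewer oocytes with the transcript cannot be told apart. The log2 fold change was -1.78 (95% interval -2.85 to -0.71, adjusted p = 0.0322 in limma). The exact two-sided permutation test gave p = 0.10, the smallest that 3 libraries against 3 allow.

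Omt2b (chr9:78327589-78329620, plus strand, protein coding) lies 12.8 kb from Omt2a and is read in the opposite direction. Its WT levels were 21428, 18627 and 15577 FPKM, against 11601, 2991 and 5607 FPKM in Lsm14b-KO FGOs. The groups did not overlap, and the replicates kept the order seen for Omt2a in both genotypes. The log2 fold change was -1.67 (95% interval -2.74 to -0.59, adjusted p = 0.0400 in limma). The Lsm14b-KO mean FPKM was 36.3% of the WT mean. Both calls were lost when any library other than Lsm14b-KO replicate 1 was left out, with adjusted p of 0.0625 to 0.131 for Omt2a and 0.0713 to 0.151 for Omt2b in limma. Without Lsm14b-KO replicate 1 the log2 fold changes were -2.31 and -2.17. That fit called 27.3% of all tested genes lower, and 4 of the 8 genes, which were Omt2a, Omt2b, Rfpl4 and Oosp1.

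The transcripts of Omt2a and Omt2b were 89.5% identical over 740 aligned nt and met no near-identical copy in the annotation, here 95% identity or more over at least 200 nt. Their levels moved almost as 1 gene. The ratio of Omt2a to Omt2b was 1.23, 1.27 and 1.29 in WT FGOs and 1.21, 1.20 and 1.09 in Lsm14b-KO FGOs. The ratio was thus slightly lower in every Lsm14b-KO library, with a log2 difference of -0.12 (exact permutation p = 0.10, adjusted p = 0.15 over 9 ratios). In the sequences below, capitals mark matches on either strand to TATAAA and to the E-box CANNTG, the binding letters of basic helix-loop-helix factors such as FIGLA. The 250 bases before each RefSeq start are shown, and the part of these bases in the levels was not tested. They are read 5′ to 3′ along the gene from RefSeq, build GRCm38.p6, at chr9:78314049-78314298 (minus strand) and chr9:78327780-78328029 (plus strand). Both windows lie inside the annotated span of the same gene, whose outermost annotated start is further upstream.
Omt2a: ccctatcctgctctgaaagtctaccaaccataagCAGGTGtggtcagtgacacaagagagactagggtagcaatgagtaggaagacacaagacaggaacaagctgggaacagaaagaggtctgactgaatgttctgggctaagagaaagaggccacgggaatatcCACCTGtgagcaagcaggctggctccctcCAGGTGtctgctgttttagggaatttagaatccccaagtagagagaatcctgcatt
Omt2b: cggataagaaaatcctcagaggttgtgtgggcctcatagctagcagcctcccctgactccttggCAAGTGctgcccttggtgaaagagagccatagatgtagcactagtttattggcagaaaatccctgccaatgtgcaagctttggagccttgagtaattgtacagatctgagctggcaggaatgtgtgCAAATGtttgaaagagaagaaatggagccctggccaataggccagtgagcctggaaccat
Aligned end to end, the windows were 48.7% identical, while pairs of unrelated genes among the 8 gave 46.8% to 53.9%. The windows are placed by the annotated starts, so they need not be matching parts of the 2 genes. Omt2a held 3 matches to CAGGTG, the form of the E-box with G in both open positions, and Omt2b held 0. Omt2b held 1 match to TAATTG, a form of the element read by the homeobox factor NOBOX, and Omt2a held 0. Over all 8 genes CAGGTG was found in 4 windows and TAATTG in 3, against 17.2% and 7.17% of 32851 RefSeq promoter windows of that length. The other NOBOX form, TAATTA, was found in 0 of the 8 and in 4.84% of all windows.

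Rfpl4 (chr7:5109787-5116950, minus strand, protein coding) reached 21366, 19737 and 18890.5 FPKM in WT FGOs, the tightest of the 8 genes on the log2 scale. Its Lsm14b-KO levels were 16016, 6669 and 9193 FPKM. The groups did not overlap and the Lsm14b-KO mean was 53.1% of the WT mean. The log2 fold change of -1.01 (95% interval -1.79 to -0.23) did not pass the adjusted threshold (adjusted p = 0.0667 in limma), and passed it only without Lsm14b-KO replicate 1 (-1.35, adjusted p = 0.00262) among 15 alternatives.

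In a list of partners and relatives of RFPL4, 1 of 5 tested transcripts was lower and 0 were higher, against 15.2% and 6.38% of all tested genes, and the median log2 fold change was -0.56. Ube2a, a ubiquitin-conjugating enzyme known as HR6A, had 24.4 ± 3.62 FPKM in WT and 25.8 ± 3.82 FPKM in Lsm14b-KO (SD, n = 3; log2 fold change 0.07, adjusted p = 0.843 in limma). Its paralog Ube2b, known as HR6B, was the lower one. Ube2b had 54.0, 55.9 and 42.3 FPKM in WT and 19.9, 12.4 and 15.3 FPKM in Lsm14b-KO libraries. The change was -1.63 on the log2 scale (SE 0.29) and passed in limma (adjusted p = 0.00885). This call was kept in 12 of 15 alternatives, with adjusted p of 0.00123 to 0.0573. Psmb1, a proteasome subunit, had 604.8, 607.8 and 527 FPKM in WT and 415, 95.4 and 185 FPKM in Lsm14b-KO libraries, a log2 fold change of -1.57 that missed the threshold (adjusted p = 0.0598). For Ccnb1, cyclin B1, the change was -0.56 (adjusted p = 0.200 in limma), and under TPM scaling it was 0.13. The paralog Rfpl4b stayed at or below 4.31 FPKM (log2 fold change 1.05, adjusted p = 0.106).

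Oosp1 (chr19:11667460-11691150, minus strand, protein coding) measured 4926.5, 5799.9 and 5032 FPKM in WT and 4839.5, 1846 and 3640.2 FPKM in Lsm14b-KO FGOs. The groups did not overlap, but replicate 1 lay just below the lowest WT value and replicate 2 far below it. The log2 fold change of -0.71 (95% interval -1.59 to 0.16) did not pass (adjusted p = 0.191 in limma), and its sign turned to 0.06 after quantile normalization and to 0.04 after correction for transcript length and GC content. Without Lsm14b-KO replicate 1 it was -1.01 (adjusted p = 0.0311).

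Oosp1 stands between 2 relatives on chromosome 19, Oosp2 at 6.90 kb and Oosp3 at 5.90 kb, which also code for oocyte-secreted proteins. Of the 3, Oosp3 changed most. Oosp3 had 6976, 7179 and 6136 FPKM in WT and 1702, 355 and 509 FPKM in Lsm14b-KO libraries. It fell by 3.32 on the log2 scale (SE 0.54), with an adjusted p of 0.00682 in limma. It was called in all 15 alternatives, with adjusted p up to 0.0497. Oosp2 had 7132, 7393 and 5814 FPKM in WT and 7703, 1791 and 2734 FPKM in Lsm14b-KO libraries, so that replicate 1 exceeded every WT library and the groups overlapped (log2 fold change -1.01, adjusted p = 0.172). Within a library, Oosp3 ran at 1.22 to 1.42 times Oosp1 in WT and at 0.140 to 0.352 times in Lsm14b-KO (log2 difference -2.61, exact permutation p = 0.10). For Oosp2 over Oosp1 the ratios overlapped, with 1.16 to 1.45 in WT and 0.751 to 1.59 in Lsm14b-KO (log2 difference -0.29, exact permutation p = 0.50). Plac1, the related placental gene, had 4.15 ± 1.91 FPKM in WT and 1.55 ± 0.225 FPKM in Lsm14b-KO (SD, n = 3; log2 fold change -0.94, adjusted p = 0.0558 in limma). The zona pellucida genes Zp1, Zp2 and Zp3, coat proteins with a domain like that of the OOSP proteins, had fitted log2 fold changes of 0.39, 1.12 and 0.65 (adjusted p = 0.562, 0.191 and 0.228). Of the 6 tested genes of this list, 1 was lower and 0 were higher, close to the 15.2% and 6.38% of all tested genes, with a median log2 fold change of -0.28.

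The oogenesins Oog2, Oog3 and Oog4 lie on chromosome 4, with Oog2 and Oog3 28.1 kb apart. The 4 pairs of oogenesin transcripts that blastn aligned, Oog1 with each of the others and Oog2 with Oog3, were 78.0% to 80.4% identical. Oog2 (chr4:144190719-144196934, plus strand) has a near-identical copy in the table, Gm13084 at 98.0% identity, and another that is not among the rows used here. Oog3 (chr4:144157557-144162663, minus strand) has 1 such copy, also not used here, and Oog4 (chr4:143437164-143450324, minus strand) has 0. The 250 bases before the RefSeq starts of the 3 genes are shown, and the part of these bases in the levels was not tested. They are read along the gene, with matches to TATAAA and CANNTG in capitals as above, at chr4:144190467-144190716 (plus strand), chr4:144162652-144162901 (minus strand) and chr4:143450325-143450574 (minus strand) of GRCm38.p6.
Oog2: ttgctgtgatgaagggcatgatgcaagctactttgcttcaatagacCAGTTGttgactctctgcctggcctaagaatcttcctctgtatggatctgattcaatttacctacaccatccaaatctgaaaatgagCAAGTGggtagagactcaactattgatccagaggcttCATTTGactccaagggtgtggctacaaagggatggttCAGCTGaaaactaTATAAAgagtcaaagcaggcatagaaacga
Oog3: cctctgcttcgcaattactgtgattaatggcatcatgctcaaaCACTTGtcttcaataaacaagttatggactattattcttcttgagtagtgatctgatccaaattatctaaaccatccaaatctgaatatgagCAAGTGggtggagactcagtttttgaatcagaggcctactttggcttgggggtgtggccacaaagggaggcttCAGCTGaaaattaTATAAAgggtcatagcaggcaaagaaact
Oog4: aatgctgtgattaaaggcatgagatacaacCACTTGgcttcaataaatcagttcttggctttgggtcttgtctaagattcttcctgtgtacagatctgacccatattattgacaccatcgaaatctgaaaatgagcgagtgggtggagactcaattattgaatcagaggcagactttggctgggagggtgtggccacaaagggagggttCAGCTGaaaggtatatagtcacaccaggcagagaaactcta
The 3 windows were 71.4% to 76.9% identical in pairs. Oog2 and Oog3 share TATAAA at 30 and 29 bases before the start, where Oog4 has no match, and all 3 hold the E-box form CAGCTG at 41 to 43 bases before the start. TATAAA was found in 3 of the 8 genes and in 12.4% of all windows, and CANNTG in 8 of the 8 genes and in 66.2% of all windows. The third match to TATAAA was in Rfpl4, further away at 118 bases before the start. Oog2 and Oog3 have related windows, so their matches are not separate finds.

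Oog2 had 3893, 3484 and 4646 FPKM in WT and 4519, 3734 and 2938 FPKM in Lsm14b-KO FGOs. Oog3 had 3944, 3285.5 and 3996 FPKM in WT and 4262, 3229 and 3069.9 FPKM in Lsm14b-KO libraries. Oog4 had 8246, 7092 and 8763.5 FPKM in WT and 11118, 6172 and 7689 FPKM in Lsm14b-KO libraries. All 3 overlapped between the genotypes, and the highest Oog3 and Oog4 values were both those of Lsm14b-KO replicate 1. The log2 fold changes were -0.12 for Oog2 (95% interval -0.76 to 0.53), -0.10 for Oog3 (-0.71 to 0.52) and 0.01 for Oog4 (-0.66 to 0.68). None of the 3 passed the test (adjusted p = 0.772, 0.797 and 0.974 in limma), and the intervals still allow a change of over 0.5 on the log2 scale either way. Oog2 together with Gm13084 had 11168 ± 1962 FPKM in WT and 12663 ± 1153 FPKM in Lsm14b-KO (SD, n = 3; log2 fold change 0.19, adjusted p = 0.566 in limma), a sum chosen after seeing the data.

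How the oogenesins compare with all other transcripts depended on the scaling. Scaling each library to the same sum moved the median of all tested genes from -0.08 to 0.40, quantile normalization moved it to 0.07, and the correction for length and GC content to 0.10. Under TPM scaling the log2 fold changes of Oog2, Oog3 and Oog4 were 0.58, 0.60 and 0.71, which is 0.18, 0.20 and 0.31 above that median. Oog4 then passed the test (adjusted p = 0.0266 in limma), as 13.0% of all genes did in that direction. Quantile normalization gave 0.71, 0.69 and 0.55, with Oog3 past the threshold (adjusted p = 0.0307), and the length and GC correction gave 0.30, 0.32 and 0.29, with 0 of the 3 past it. Omt2a and Omt2b stayed lower and past the threshold under all 3, at -1.09 and -0.97 under TPM scaling (adjusted p = 0.0312 and 0.0413, with 7.60% of all genes called lower), -1.18 and -1.11 under quantile normalization, and -1.21 and -0.86 under the correction. Rfpl4 stayed negative but moved to -0.31, -0.28 and -0.56, with no call.

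**Figure D2:**
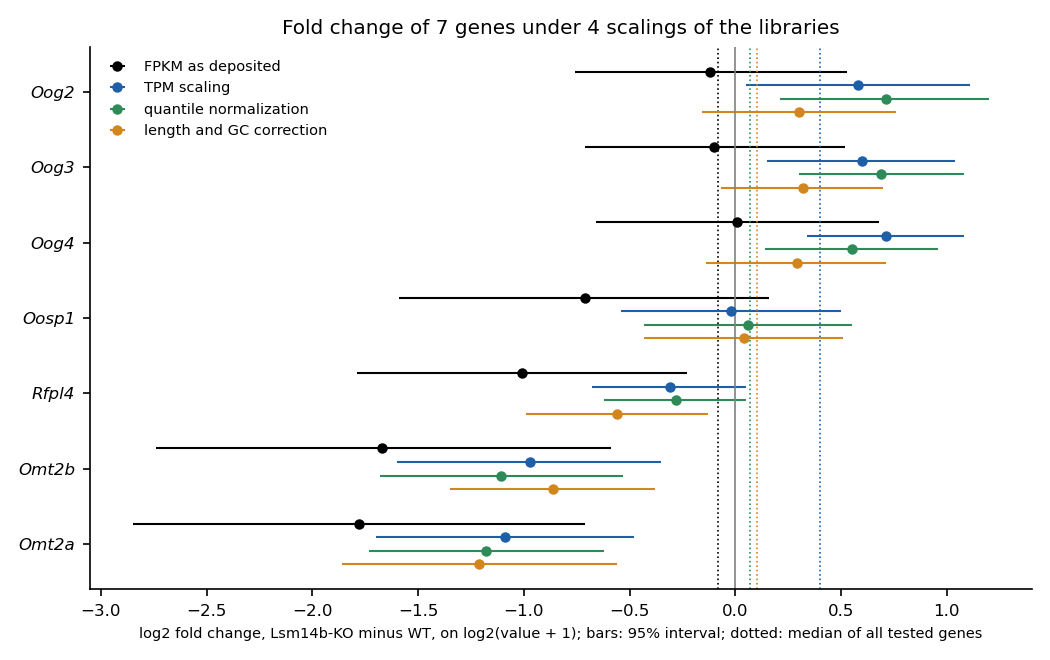
Log2 fold change (Lsm14b-KO minus WT) of 7 genes on log2(value + 1), with 95% intervals, for FPKM as deposited and under 3 other scalings. Dotted lines give the median of all tested genes in the same colour. Omt2a and Omt2b lie below 0 under all 4, Oog2, Oog3 and Oog4 move from about 0 to 0.29 to 0.71, and Oosp1 and Rfpl4 move up with them.

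Ranks and ratios of FPKM within a library do not depend on a factor applied to the whole library, such as TPM scaling, and were added after the values had been seen. Quantile normalization and the length and GC correction can change the ratios. Omt2a ranked 7, 7 and 8 by FPKM among all genes in WT and 15, 34 and 23 in Lsm14b-KO FGOs. Omt2b ranked 8 to 13 in WT and 19 to 42 in Lsm14b-KO libraries, and Rfpl4 8 to 9 and 10 to 16. The oogenesins went the other way, Oog2 from 54 to 69 in WT up to places 31 to 48, Oog3 from 62 to 74 up to 39 to 50, and Oog4 from 24 to 36 up to 16 to 22. The ranks of these 6 genes did not overlap between the genotypes, 3 lying further down and 3 further up in Lsm14b-KO FGOs, as 21.6% and 23.3% of all tested genes did, while those of Oosp1 did, with 42 to 55 in WT and 38 to 58 in Lsm14b-KO libraries.

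Set against the geometric mean of Oog2, Oog3 and Oog4 in the same library, Omt2a stood at 5.26, 5.46 and 3.69 in WT and at 2.34, 0.856 and 1.49 in Lsm14b-KO libraries. Omt2b stood at 2.85 to 4.30 in WT and at 0.711 to 1.94 in Lsm14b-KO libraries. Rfpl4 stood at 3.46 to 4.56 and at 1.59 to 2.68, and Oosp1 at 0.922 to 1.34 and at 0.439 to 0.886. None of the 4 ratios overlapped between the genotypes, and the log2 differences were -1.72, -1.60, -0.94 and -0.65. Each gave an exact permutation p of 0.10, the lowest possible (adjusted p = 0.15 over 9 ratios). The divisor was chosen after the values had been seen, from genes that kept similar FPKM. Lower ratios for the other genes follow in part from that choice. How many of all tested genes lie apart by such a ratio was not computed, so the count of 4 adds no support. The ratio of Oog2 to Oog3 overlapped, with 0.987 to 1.16 in WT and 0.957 to 1.16 in Lsm14b-KO libraries (log2 difference -0.02, exact permutation p = 0.70), as did that of Oog4 to Oog3, with 2.09 to 2.19 and 1.91 to 2.61 (0.11, p = 0.40 by the exact test).

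**Figure D3:**
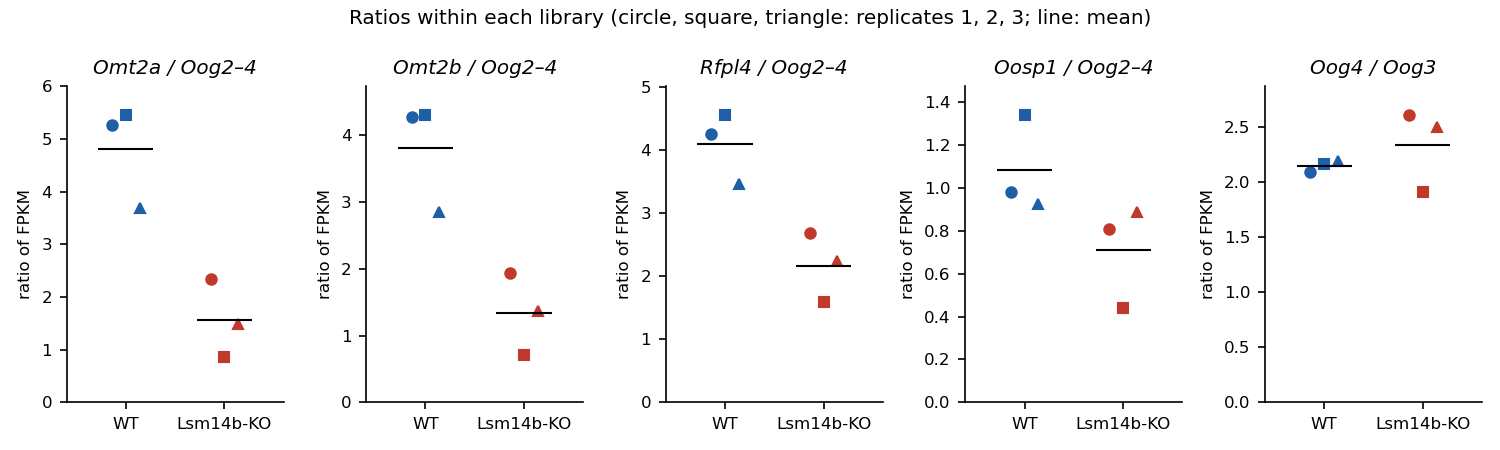
FPKM of Omt2a, Omt2b, Rfpl4 and Oosp1 divided by the geometric mean of Oog2, Oog3 and Oog4 in the same library, and of Oog4 divided by Oog3, for 3 WT (blue) and 3 Lsm14b-KO (red) libraries with the mean as a line. The first 4 ratios are lower in every Lsm14b-KO library than in any WT library, and the last overlaps. The divisor was chosen after the values had been seen.

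Oog1 (chr12:87602688-87608850, plus strand) was listed at 0, 24.0 and 83.5 FPKM in WT and at 0, 223.5 and 0 FPKM in Lsm14b-KO FGOs. These values have no order by genotype, and the log2 fold change of -1.08 had a 95% interval of -6.36 to 4.20 (adjusted p = 0.736 in limma). The transcript of Oog1 has 4 near-identical copies, all in the table. They are Gm2042 at 99.5% identity, Gm10436 at 98.8%, Gm13023 at 95.9% and C87977 at 95.4%. Gm2042 is 1 of the genes within the locus the table gives for Oog1, chr12:87602663-87960682. The copies were abundant in every library. Gm10436 had 17264, 16091 and 18086 FPKM in WT and 14494.5, 13082 and 10998 FPKM in Lsm14b-KO libraries. Its groups did not overlap, as for 26.0% of all tested genes in that direction, and it was not called (log2 fold change -0.42, adjusted p = 0.201 in limma). Gm2042, at 6025 to 9058 FPKM, Gm13023 and C87977 overlapped between the genotypes, with log2 fold changes of -0.26, 0.04 and 0.45. Summed over the 5 genes, a step chosen after seeing the data, the level was 34430.3, 32513 and 40723.5 FPKM in WT and 30493.5, 38460.0 and 28728 FPKM in Lsm14b-KO libraries. The sums overlapped between the genotypes (log2 fold change -0.15, 95% interval -0.66 to 0.37, adjusted p = 0.638 in limma). Oog1 itself held at most 0.581% of the sum in any library. A listed 0 for Oog1 therefore cannot be read as an absent transcript, since fragments of near-identical copies can be counted to either.

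**Figure D4:**
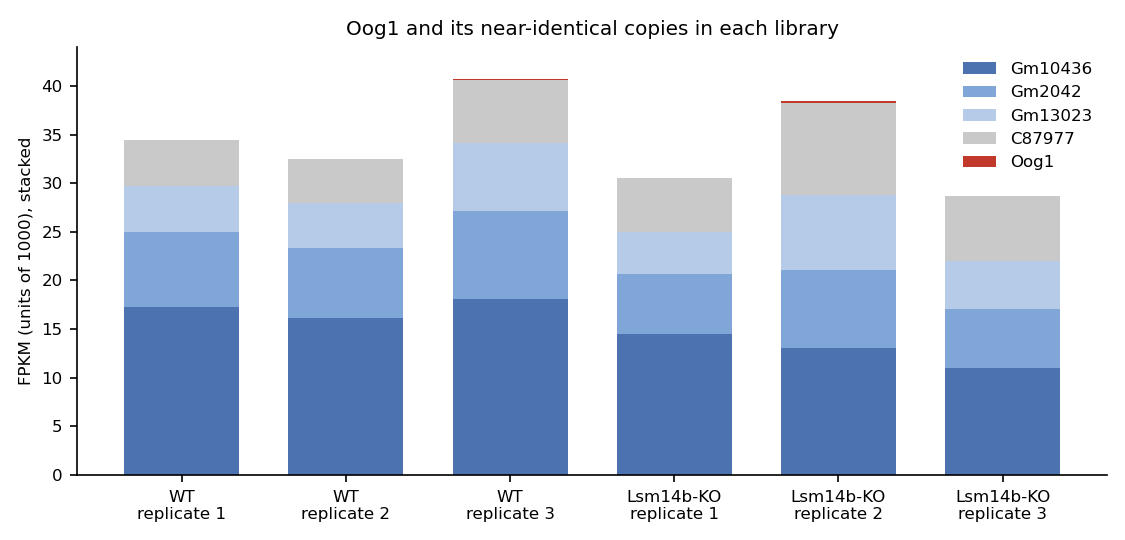
FPKM of Oog1 and its 4 near-identical copies, stacked (axis in units of 1000 FPKM), in each of the 6 libraries. The stack runs from 28728 to 40723.5 FPKM, the genotypes overlap, and Oog1 is a barely visible layer in Lsm14b-KO replicate 2.

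Further PRAME family genes were taken by names or synonyms that start with Prame or Oog, which left out Gm2042. Of 31 such genes in the table, 16 were tested, and 9 were listed at 0 in all libraries. Of the 16, 3 were higher in Lsm14b-KO FGOs and 0 were lower, against 6.38% and 15.2% of all tested genes, with a median log2 fold change of 0.33. The 3 were Pramef12 at 13.4 ± 1.26 FPKM in WT and 29.4 ± 3.35 FPKM in Lsm14b-KO, Pramef17 at 0.318 ± 0.143 and 1.46 ± 0.267 FPKM, and Gm13128, which was listed at 0 in WT replicates 1 and 2 and stayed at or below 1.76 FPKM. None of the 9 with a mean of at least 100 FPKM passed the test in limma, with 0 of them at an unadjusted p under 0.05. The 3 most abundant were Gm10436, Gm13084 and Gm13103, at means of 17147, 7160.2 and 8497 FPKM in WT and 12858, 8933 and 7399 FPKM in Lsm14b-KO, with log2 fold changes of -0.42, 0.33 and -0.30. The first and the third of these turned positive under TPM scaling, to 0.27 and 0.39. The proteins linked to OOG1 are small GTPases and the Ral exchange factor RALGDS. Their transcripts were low, with 4 of 6 tested and 0 past the threshold in limma (1 at an unadjusted p under 0.05), and a median log2 fold change of -0.28. The fitted change was -0.45 on the log2 scale for Rala (adjusted p = 0.0977 in limma), 0.58 for Nras (adjusted p = 0.138) and -0.12 for Hras (adjusted p = 0.777).

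Transcription factors that set up oocyte gene expression in growing follicles were also examined, and of 4 tested 2 were higher and 0 were lower, against 6.38% and 15.2% of all tested genes, with a median log2 fold change of 0.77. Nobox had 10.5, 10.5 and 16.5 FPKM in WT and 46.3, 98.9 and 52.3 FPKM in Lsm14b-KO libraries (log2 fold change 2.25, adjusted p = 0.0064 in limma), and was called in all 15 alternatives. Lhx8, a LIM homeobox factor, rose by 0.80 on the log2 scale (adjusted p = 0.0447) and was called in 8 of 15 alternatives. Figla, the helix-loop-helix factor of zona gene expression, had 92.2, 96.4 and 91.7 FPKM in WT and 147, 57.8 and 78.1 FPKM in Lsm14b-KO libraries (log2 fold change -0.10, adjusted p = 0.860).

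The genes that followed the group most closely were sought among 2552 other tested genes with a mean of at least 5 FPKM. Likeness was the root-mean-square difference over the 6 libraries, on log2(FPKM + 1) set to the WT mean of each gene. Xlr3b was nearest to both Oog2 and Oog3, at 0.08 and 0.07, and Nup37, a nuclear pore gene, was nearest to Oog4 at 0.09. Gm3258 was nearest to Omt2a at 0.05, and Gtsf1, a zinc finger gene of the germline, to Omt2b at 0.07. Hprt, the gene of a purine salvage enzyme used by most cells, was nearest to Rfpl4 at 0.03, with 416, 388 and 373 FPKM in WT and 322, 133 and 175 FPKM in Lsm14b-KO libraries. The gene nearest to Oosp1 was 2210015D19Rik, at 0.11. For Oog1 no gene came nearer than 1110008F13Rik, at 2.78. Within the group, Omt2a and Omt2b differed by 0.10, Oog2 and Oog3 by 0.11, Rfpl4 and Oosp1 by 0.28, and Oog2 and Omt2a by 1.30. The 2 Omt2 genes were no closer to each other than many other genes were to them, with 14 genes nearer to Omt2a than Omt2b was. Likewise 4 genes were nearer to Oog2 than Oog3 was, and 2 were nearer to Oog3 than Oog2 was. For Oog4, 32 genes were nearer than Oog3.

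Within 100 kb of Omt2a and Omt2b lie 4 other tested genes, named here after their values had been seen. Gsta2, at 1.40 kb from Omt2b, and Gm10639, at 6.45 kb from Omt2a, stayed at or below 2.51 FPKM, with log2 fold changes of -0.93 and -1.0 that missed the threshold (adjusted p = 0.0760 and 0.0703 in limma). Dppa5a and Ooep, both abundant, lie 37.4 and 46.5 kb from Omt2b. Dppa5a had 8924, 8235 and 7762 FPKM in WT and 22142, 9001 and 14806 FPKM in Lsm14b-KO libraries (log2 fold change 0.79, adjusted p = 0.130 in limma). Ooep, a subunit of the subcortical maternal complex, had 7040.1, 7155 and 6144 FPKM in WT and 9389.8, 3987 and 6962.5 FPKM in Lsm14b-KO libraries (log2 fold change -0.08, adjusted p = 0.867). Within 100 kb of Rfpl4, Rasl2-9 and Zfp865 were called lower, also named after the values had been seen. Their log2 fold changes were -2.82 and -0.99 (adjusted p = 0.00121 and 0.0295 in limma). Fiz1 and Zfp524 in the same window were not called (adjusted p = 0.0705 and 0.587 in limma).

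The 4 genes with lower values had shorter annotated transcripts than Oog2, Oog3 and Oog4. The annotated lengths were 735 nt for Omt2b, 972 nt for Oosp1, 1167 nt for Omt2a and 1598 nt for Rfpl4, against 1865 to 1981 nt for Oog2, Oog3 and Oog4. These are lengths of the longest transcript with a RefSeq match. Omt2a also has an annotated transcript of 735 nt, so its length class and its corrected value rest on this choice. Over all 6323 tested genes with a length, the median log2 fold change was -0.62 below 1000 nt, -0.32 from 1000 to 2000 nt and 0.19 above that, and 20.8%, 19.6% and 11.4% were called lower. After the correction for length and GC content Omt2a and Omt2b were still lower, with adjusted p of 0.0217 and 0.0247 in limma, Rfpl4 missed the threshold (adjusted p = 0.0632) and Oosp1 stood at 0.04 on the log2 scale (adjusted p = 0.891).

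**Figure D5:**
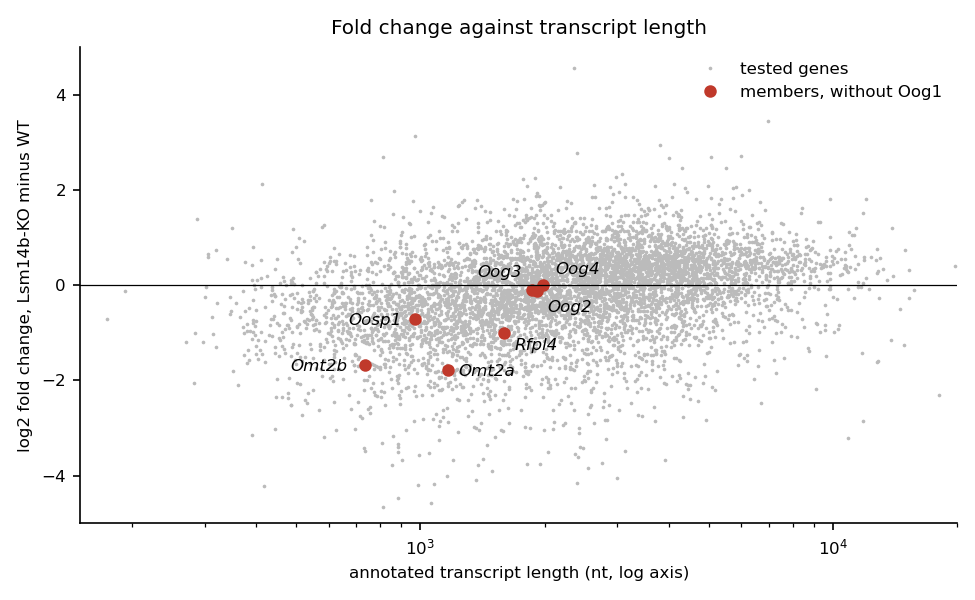
Log2 fold change (Lsm14b-KO minus WT) of the tested genes (grey) against annotated transcript length in nt on a log axis, with 7 of the 8 genes in red. Short transcripts tend to lie below 0, and Omt2b at 735 nt and Omt2a at 1167 nt lie below the median of their length class. The axes leave out a few genes of extreme length or change.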

How the data were processed

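RNA-Seq of 3 WT and 3 Lsm14b-KO libraries of GV-stage FGOs was used, grouped by sample title. Per the labels' processing notes, the authors aligned reads to mm10 with TopHat2 2.0.13 and used Cufflinks 2.2.1 with Cuffnorm and Cuffdiff. The annotation is not given in the sources used here, nor is strandedness. The authors deposited 1 FPKM column per library, with 24255 genes, besides group comparisons (log2 fold change, p-value and q-value of Cuffdiff) that were not used. The labels name more than 1 library kit, so none is given.

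The test was limma 3.58.1 (R 4.3.3; lmFit, eBayes with trend, genotype only) on log2(FPKM + 1), for every gene that reached 1 FPKM in any library, two-sided, with Benjamini-Hochberg adjustment over 6398 genes at a threshold of 0.05. This scale understates changes of low genes. The fit was also run on simulated data with the same spread in both groups and no difference in library scaling. Such data cannot show how the fit behaves here, where spread and FPKM sums differ between the groups. Single values were compared by exact permutation (scipy 1.17.1). Copies were sought with blastn 2.17.0 among GENCODE vM21 transcripts (GRCm38, the assembly of mm10). Lengths and GC content came from the longest transcript with a RefSeq match and were found for 98.8% of tested genes. The length and GC correction subtracted a loess fit (span 0.5) in each library. The values are not counts, so no count model was fitted and no counting interval is given. Relative depth rests on 604 to 691 genes below 0.15 FPKM per library; the commonest ratio held 26.9% to 51.3% of them, and is least sure for Lsm14b-KO replicate 3.

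The genes, gene lists and tests were chosen with earlier results of these data known. Named genes were the 8 genes, Lsm14b, every tested gene of the lists of Oosp and Omt relatives, RFPL4 partners and OOG1 partners, the 3 most abundant other PRAME genes, and the nearest profile to each of the 8. The values of 1 gene of these lists are not reported here. Alternatives were other scalings, pseudocounts of 0.1 and 0.01, other filters, no trend, a replicate block and leaving out each library. Of the other marker lists, 7 immune and stromal markers summed to 0.671 to 1.53 FPKM in WT and 0.67 to 2.05 FPKM in Lsm14b-KO libraries.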

Additional observations from a re-analysis of the deposited data

How the results depend on the processing

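The number of genes past the threshold, 1383, fell to 720 with no filter on low values and ran from 315 to 2898 when single libraries were left out, lowest without Lsm14b-KO replicate 3 and highest without Lsm14b-KO replicate 1. Quantile normalization and the length and GC correction gave 540 higher and 735 lower, and 646 higher and 787 lower. Of the 8 genes, 2 passed. The count was 0 at a pseudocount of 0.01 and with no filter in limma, each with 3 genes at an unadjusted p under 0.05, and 0 to 4 when single libraries were left out (2 to 4 at an unadjusted p under 0.05). The log2 fold change changed sign for Oog2 under TPM scaling (0.58), quantile normalization (0.71), the length and GC correction (0.30) and summing with its copy (0.19), for Oog3 under the first 3 (0.60, 0.69 and 0.32), and for Oosp1 after quantile normalization (0.06) and the correction (0.04). With single libraries left out it ran from -3.68 to 0.28 for Oog1, -0.26 to 0.05 for Oog2 and -0.22 to 0.21 for Oog4. The causes were not tested. Omt2a (-2.31 to -1.09), Omt2b (-2.17 to -0.86) and Rfpl4 (-1.35 to -0.28) kept their sign in all 15 alternatives. Of these, 8 called Omt2a and 8 called Omt2b. The labels number the replicates 1 to 3 in both groups and do not say whether libraries with the same number belong together. Deviations from the group means of such libraries correlated at r = 0.19, -0.128 and 0.0179. Libraries with unlike numbers gave -0.275 to 0.306. With 3 libraries per group these values cannot decide whether the replicates are paired. With a replicate block, 1244 genes passed (353 higher, 891 lower) and the same count of 2 among the 8 genes.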
